A study of Mus musculus with 3 samples.

Results

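The genes described here are the 9 mouse genes for the cap'n'collar factors of the NF-E2 family (*Nfe2*, *Nfe2l1*, *Nfe2l2* and *Nfe2l3*), the small MAF proteins (*Mafg*, *Mafk* and *Maff*) and the BACH repressors (*Bach1* and *Bach2*). They were taken by name, and all 9 were found among the 22367 protein-coding genes of the mm9 annotation. The question asked of each gene was how much FLI1 and RUNX1 was bound at its start and along its locus in mature megakaryocytes (MK). The cells were wild-type CD1 mouse fetal liver cells, taken at embryonic day 15 by the sample labels and a day earlier by the methods, grown for 5 days with thrombopoietin. Cells marked by TER119, GR1 or CD11b were removed and large cells were enriched over albumin. Chromatin immunoprecipitation and sequencing (ChIP-seq) with a FLI1 antibody, ChIP-seq with a RUNX1 antibody and input chromatin without an antibody gave 1 library each, and all 3 came from the same kind of cell. Each ChIP library was pooled from 3 or more precipitates, so there were no replicate libraries, no test was possible, and every interval given below covers counting error only.

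The protein of *Nfe2* and its relatives binds DNA as a pair with a small MAF protein. Small MAF proteins have no activating domain of their own and pair with activators, with repressors or with each other. *Nfe2* is expressed mainly in blood cells and is needed for platelet formation. *Nfe2l1* and *Nfe2l2* drive proteasome, antioxidant and detoxifying genes, and the proteins of *Bach1* and *Bach2* compete for the same small MAF partners to repress such genes. Such pairs can read DNA with a TGAGTCA core, and sites without those exact letters were not counted here. FLI1 belongs to the ETS factors, which bind a GGAA core, and RUNX1 binds a TGTGGT core.

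The files held 62946422 FLI1, 3973856 RUNX1 and 21745220 input reads after chromosome M and repeated positions were left out. Reads were counted in 400-bp bins. A bin was called for FLI1 at 3 times the expected reads, which took at least 41 reads, and for RUNX1 at 8 times, which took at least 7 reads. The expected number was either the mean rate over the genome or, where greater, the local input level across 1.2, 5.2 or 10 kb, so most ordinary bins came out below 1. At the RUNX1 depth the genome-wide rate was 0.85 reads a bin, and the limit of 8-fold was chosen since lower folds rest on few reads, so a gene without a called bin cannot be said to lack RUNX1. Outside called bins, minus-strand reads were more frequent 80 to 400 bp downstream of a plus-strand read than at 800 to 1120 bp, by 41.2 reads per 100 plus-strand reads in FLI1 (476 against 435), 20.9 in RUNX1 (49.2 against 28.3) and 27.6 in the input (190 against 162). Set against the rate at 800 to 1120 bp, the excess was largest in RUNX1. Whether some reads are both ends of 1 fragment was not tested, and intervals that treat each read as a separate count may be too narrow for all 3 libraries. The lists of marker genes bear on the label of the cells. FLI1 was called at the promoters of 9 of 10 megakaryocyte genes, 1 of 7 erythroid, 3 of 7 granulocyte and monocyte, 1 of 6 lymphoid and 0 of 5 hepatocyte genes, where the share of all protein-coding genes was 35.6%. Anywhere in the locus it was called at 10 of 10, 4 of 7, 7 of 7, 4 of 6 and 0 of 5, where the share of all loci was 61.9%. These are counts of binding and not of RNA.

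At the start of *Nfe2* (chr15:103078643-103088834, minus strand), reads of both antibodies piled up in the same bin. The bin chr15:103088801-103089200, centred 167 bp upstream of the start, held 413 FLI1 reads against 15.4 expected, 19 RUNX1 reads against 0.975 expected and 7 input reads. These are folds of 26.8 for FLI1 and 19.5 for RUNX1. The densest FLI1 position lay 191 bp upstream and the densest RUNX1 position 29 bp from it. The sequences printed next are those around the FLI1 summits of the bins on which the results turn, 151 bp of mm9 (133 bp at *Nfe2l1*, where the exon was left out) and 5′ to 3′ on the strand of the gene. Capitals mark a GGAA core, a longer ETS match (CCGGAA or CAGGAA) or a RUNX match (TGTGGT or TGCGGT), on either strand.
*Nfe2* start, chr15:103088950-103089100 (minus strand): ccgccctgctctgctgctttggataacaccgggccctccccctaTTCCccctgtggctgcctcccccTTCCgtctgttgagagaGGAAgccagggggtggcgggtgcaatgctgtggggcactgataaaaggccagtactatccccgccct
*Nfe2* intron, chr15:103083275-103083425 (minus strand): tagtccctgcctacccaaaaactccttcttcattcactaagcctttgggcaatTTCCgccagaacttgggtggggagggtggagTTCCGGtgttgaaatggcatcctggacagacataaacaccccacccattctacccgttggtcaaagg
*Nfe2l1* start, chr11:96691283-96691415 (minus strand): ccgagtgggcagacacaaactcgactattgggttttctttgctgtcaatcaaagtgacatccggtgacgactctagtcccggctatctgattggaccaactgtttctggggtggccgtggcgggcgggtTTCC
*Nfe2l2* intron, chr2:75521070-75521220 (minus strand): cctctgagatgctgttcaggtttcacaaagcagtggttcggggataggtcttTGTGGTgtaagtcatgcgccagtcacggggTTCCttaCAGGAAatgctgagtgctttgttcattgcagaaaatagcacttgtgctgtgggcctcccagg
*Mafg* intron near the start, chr11:120493929-120494079 (minus strand): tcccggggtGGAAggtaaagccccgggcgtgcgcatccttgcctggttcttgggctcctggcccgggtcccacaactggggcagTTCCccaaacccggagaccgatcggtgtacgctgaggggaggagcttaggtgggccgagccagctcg
*Mafk* upstream, chr5:140265609-140265759 (plus strand): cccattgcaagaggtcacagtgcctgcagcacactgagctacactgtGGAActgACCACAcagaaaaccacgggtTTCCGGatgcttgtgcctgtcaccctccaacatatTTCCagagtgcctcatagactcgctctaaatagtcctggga
*Bach1* intron near the start, chr16:87700275-87700425 (plus strand): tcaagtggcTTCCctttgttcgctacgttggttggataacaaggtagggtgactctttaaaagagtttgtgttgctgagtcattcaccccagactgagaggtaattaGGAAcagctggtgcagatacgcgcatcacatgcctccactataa
*Bach2* intron, chr4:32474977-32475127 (plus strand): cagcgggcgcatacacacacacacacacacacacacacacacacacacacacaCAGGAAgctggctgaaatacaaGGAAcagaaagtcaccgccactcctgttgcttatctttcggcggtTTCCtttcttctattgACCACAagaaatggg
The *Nfe2* start window held 3 GGAA cores, 2 of them read as TTCC, but neither a longer ETS match nor a RUNX match. Over the whole 400-bp bin there was 1 match of each. The *Nfe2* intron window and the *Mafk* window held TTCCGG, which is CCGGAA on the other strand. In the *Nfe2l2* and *Bach2* intron windows there were both CAGGAA and a RUNX match, TGTGGT in the first and its reverse ACCACA in the second, near the end of the window and more than 50 bp from the summit. The *Bach1* window, from an intron bin near the start, had no ETS or RUNX match and held TGAGTCA, a core that products of these genes can bind. The *Nfe2l1* and *Mafg* windows held GGAA cores alone, 1 and 2 of them. That of *Nfe2l1* lay at the end of the window, more than 50 bp from the FLI1 summit. The *Nfe2* and *Nfe2l1* start windows and those of *Mafg*, *Mafk* and *Bach1* come from the strongest promoter bin of each gene, while the *Nfe2*, *Nfe2l2* and *Bach2* intron windows were chosen after their values were seen. The strongest promoter bin of *Nfe2l2* overlaps an untranslated exon and is not printed.

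*Nfe2* stood out in the rank of its strongest promoter bin. Of the 22367 genes, 8 had a higher FLI1 fold in the strongest bin within 2 kb of the start, and 1 had a higher RUNX1 fold. Placing the bins 200 bp further along lowered the FLI1 fold of *Nfe2* from 26.8 to 17.4, and the ranks were not recomputed on that grid. In the 4 kb around the start, there were 670 FLI1, 40 RUNX1 and 47 input reads. Scaled to library depth, FLI1 was 4.92 times the input (95% interval 3.66 to 6.77) and RUNX1 4.66 times (2.98 to 7.25), at the percentiles 98.6 and 99.5 of all genes. Within 1 kb the ratios were 8.25 and 7.61, and over all annotated starts of the gene 3.15 and 2.43, so the reads were gathered close to the first start.

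The RUNX1 peak of *Nfe2* rested on reads of both strands. Of its 19 reads, 6 lay on the plus strand (12.3-fold, 4.52 to 26.8) and 13 on the minus strand (26.7-fold, 14.2 to 45.6). The bin therefore passed 8-fold on either strand alone, where the ends of a fragment cannot both be counted. Its neighbour downstream held 65 FLI1 reads (3.96-fold) and 7 RUNX1 reads (6.76-fold, not called). A further bin 1767 bp upstream was called for both, with 51 FLI1 reads (3.79-fold) and 8 RUNX1 reads (9.41-fold), of which 5 were on the plus strand and 3 on the minus strand (7.06-fold). *Nfe2* also has starts further in. FLI1 was called near the start 5593 bp inside the gene (202 reads, 9.97-fold). Its summit, in an intron 5484 bp inside the gene, lay 109 bp from that start. FLI1 was also called at the start 2964 bp inside the gene, where the summit lay 1 bp away (86 reads, 5.38-fold). In all, 10 bins of the locus were called for FLI1, or 19.7 per 100 kb, at the percentile 99.3 of all loci. Of these, 3 lay within 2 kb of the start of *Cbx5*, *Hnrnpa1* or *Copz1*, and 7 were left without them.

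**Figure D1:**
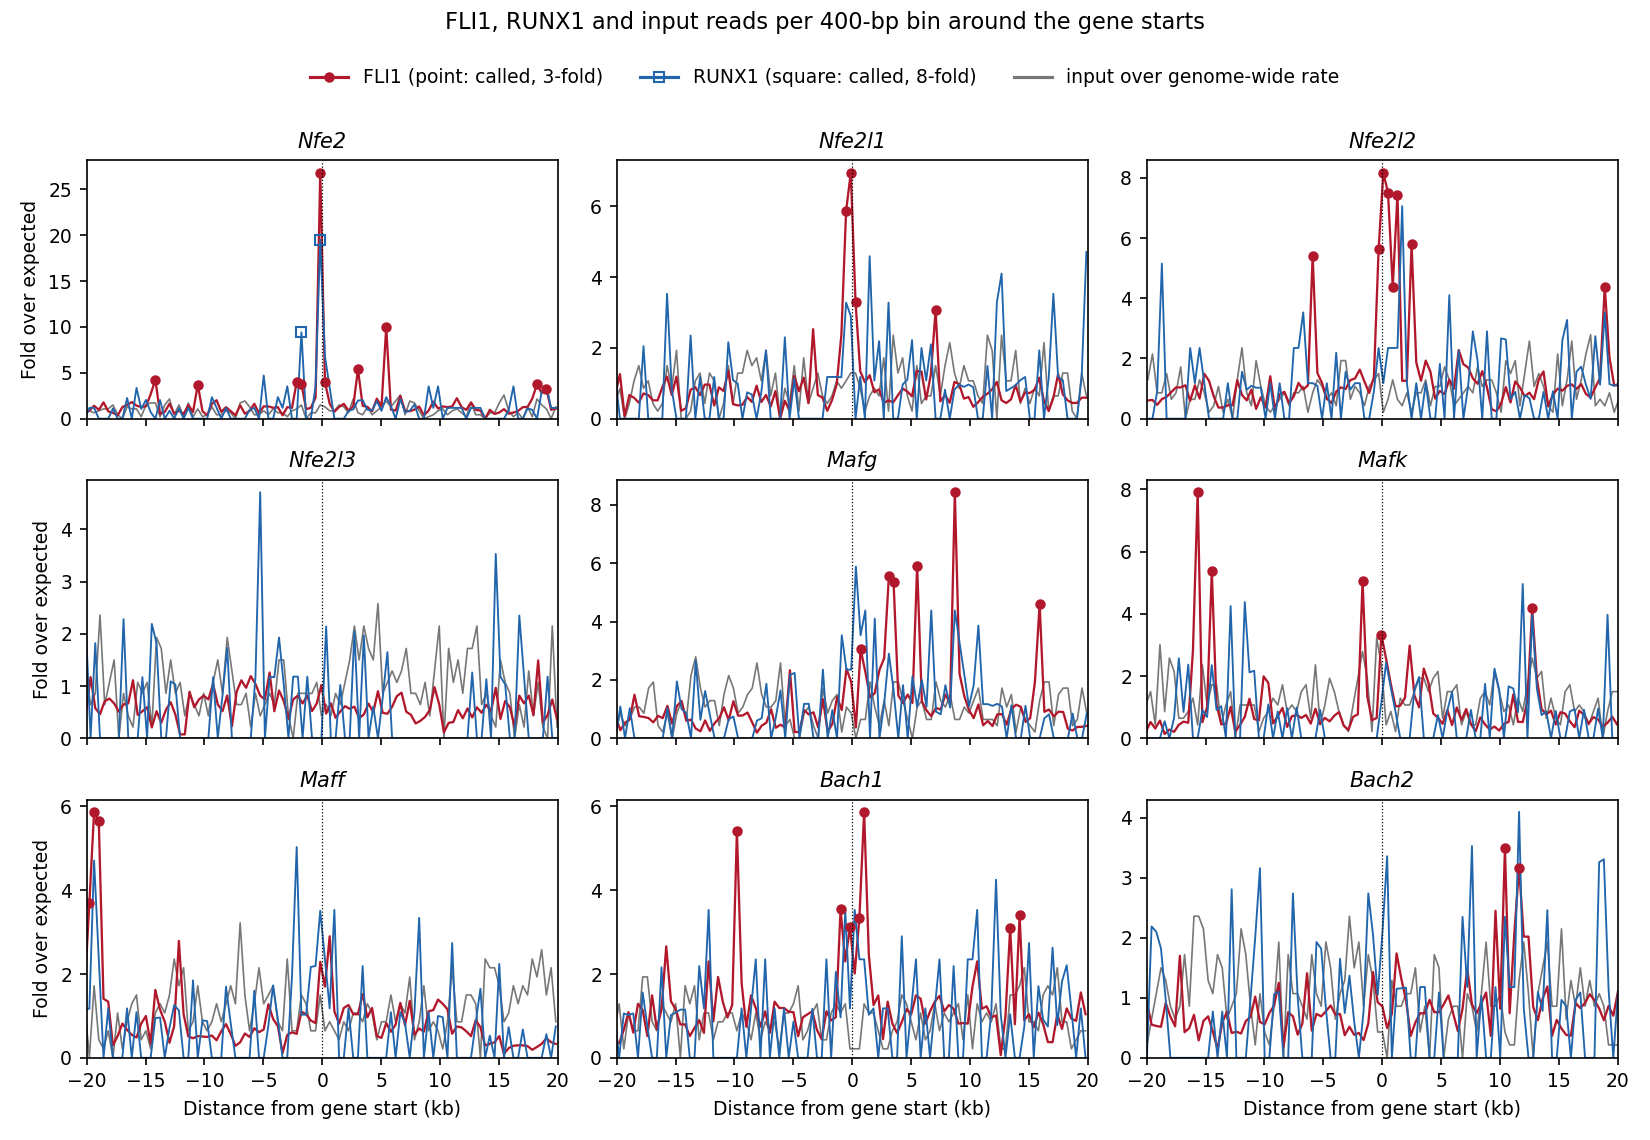
Fold over expected reads (vertical, scaled separately in each panel) in 400-bp bins by distance from the gene start in kb (horizontal, 5′ to 3′ along the gene) for FLI1 (red), RUNX1 (blue) and input over its genome-wide rate (grey). Filled points mark bins called for FLI1 and open squares bins called for RUNX1; *Nfe2* peaks at 26.8 and 19.5 in a single bin, and no panel other than *Nfe2* shows a RUNX1 square within 20 kb of the start.

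*Nfe2l2* (chr2:75513570-75542698, minus strand), the main factor of the oxidative stress response, had the same FLI1 ratio as *Nfe2* but in another form. Its 4 kb held 541 FLI1, 17 RUNX1 and 38 input reads, a FLI1 ratio of 4.92 (3.54 to 7.03) and a RUNX1 ratio of 2.45 (1.3 to 4.44). The FLI1 reads spread over 5 neighbouring called bins of 59 to 110 reads, from 303 bp upstream to 1297 bp inside the gene, with folds of 4.38 to 8.17. No single bin came near the 413 reads of *Nfe2*, and 2343 genes had a higher strongest bin.

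The *Nfe2l2* locus carried 12 called FLI1 bins, or 17.2 per 100 kb, at the percentile 98.8. Besides the 5 at the start, 4 lay in introns, 1 lay 5903 bp upstream and 2 lay at the start of *Hnrnpa3*. The strongest bin of the locus was the intron bin shown above, chr2:75520801-75521200, with 153 FLI1 reads (11.4-fold), 3 RUNX1 reads (3.53-fold) and 5 input reads. The highest RUNX1 bins were 1697 bp inside the gene and at *Hnrnpa3*, each with 6 reads (7.06-fold), below the 8-fold limit. With RUNX1 called at 6-fold, 2 bins of the locus were called, and 3 of the 9 loci held a call where 19.1% of all loci did.

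*Nfe2l1* (chr11:96678728-96691282, minus strand), the factor that raises proteasome genes when proteasomes fail, had 361 FLI1, 15 RUNX1 and 40 input reads around its start. The FLI1 ratio was 3.12 (2.25 to 4.44), at the percentile 91.7, and the RUNX1 ratio 2.05 (1.05 to 3.8). Called bins formed a run of 3 across the start with 51, 114 and 85 FLI1 reads, the highest at 6.95-fold. No RUNX1 bin came above 4 reads there (4.59-fold).

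*Nfe2l3* (chr6:51382669-51408767, plus strand), a less studied factor of the family, was at the level of the input. Its 4 kb held 91 FLI1, 5 RUNX1 and 37 input reads, which gave ratios of 0.85 (0.574 to 1.28) and 0.739 (0.227 to 1.89). The strongest of its promoter bins had 15 FLI1 reads where 14.7 were expected (1.02-fold). The 5 called bins of its locus, with up to 166 reads (12.3-fold), all lay between 36332 and 37932 bp from the start of *Nfe2l3*, at the paired starts of *Cbx3* and *Hnrnpa2b1*.

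The small MAF genes had FLI1 ratios of 1.56 to 2.2 at their starts. At *Mafg* (chr11:120486431-120494914, minus strand), 218 FLI1, 20 RUNX1 and 42 input reads gave a FLI1 ratio of 1.79 (1.28 to 2.56) and a RUNX1 ratio of 2.61 (1.45 to 4.54). The strongest bin at the start had 41 FLI1 reads (3.05-fold), exactly the number needed, and was lost at 5-fold. FLI1 was also called at the starts inside *Mafg*. Around the start 3452 bp inside the gene there were 432 FLI1, 14 RUNX1 and 46 input reads, a FLI1 ratio of 3.24, with called bins of 103 and 91 reads beside it and 1 of 87 reads beyond. Of its 6 called bins, 2 lay at the starts of *Sirt7* and *Pcyt2*. RUNX1 reads at *Mafg* sat close to the first start, with 5 reads in the best bin (5.88-fold, not called) and a ratio of 6.25 within 1 kb, where the FLI1 ratio was 3.13. That bin held 0 input reads. The 1-kb ratios rest on fewer RUNX1 and input reads than the 20 and 42 of the 4 kb, and no interval is given for them.

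*Mafk* (chr5:140267467-140278607, plus strand), the small MAF partner in NF-E2 of erythroid cells, had many FLI1 and few RUNX1 reads at its start. There were 453 FLI1, 8 RUNX1 and 71 input reads in its 4 kb, and the ratios were 2.2 (1.71 to 2.87) and 0.617 (0.256 to 1.28). The RUNX1 ratio was 1.16 within 1 kb. Its strongest bin, 1666 bp upstream, had 151 FLI1 reads, more than any promoter bin of *Nfe2l1*, *Nfe2l2*, *Mafg* or *Bach1*. But the input was high there, with 13 reads in the bin, and its level over 1.2 kb raised the expected number to 29.9, so the fold was 5.05, against 11.2 over the genome-wide rate alone. That bin held 0 RUNX1 reads, which allows up to 1.59-fold if 3 reads are taken as the limit for a count of 0. An exact Poisson interval would reach higher. Its sequence is the one with TTCCGG and ACCACA shown above, so a RUNX match stood in a window without RUNX1 reads. A bin at the start itself had 90 FLI1 reads (3.33-fold).

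*Maff* (chr15:79177971-79189502, plus strand), a small MAF induced by stress, fell just below the limit. Its 190 FLI1, 15 RUNX1 and 42 input reads gave ratios of 1.56 (1.11 to 2.24) and 1.95 (1.01 to 3.6). The strongest bin at the start had 39 FLI1 reads (2.9-fold), 2 fewer than that of *Mafg*, so the call of one and not of the other rests on counts that lie within counting error of each other. The 3 called bins of the *Maff* locus, of up to 79 reads (5.87-fold), all lay at the start of *Pla2g6*, between 18970 and 19770 bp upstream.

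The 2 BACH genes differed in where FLI1 lay. *Bach1* (chr16:87699190-87733591, plus strand), the repressor of heme oxygenase, held 364 FLI1, 16 RUNX1 and 41 input reads around its start. The ratios were 3.07 (2.22 to 4.35) and 2.14 (1.12 to 3.89). FLI1 was called in 4 bins at the start, of 42 to 79 reads (3.12- to 5.87-fold), in 2 intron bins and in 1 bin 9789 bp upstream (73 reads, 5.42-fold). Over its 7 called bins RUNX1 was at 1.01 times the expected reads (0.407 to 2.09).

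*Bach2* (chr4:32325779-32673083, plus strand), the repressor known from lymphocytes, was at input level in the 4 kb around its start. Within 1 kb the ratios were 1.43 for FLI1 and 2.74 for RUNX1, with no interval given. The 4 kb held 135 FLI1, 14 RUNX1 and 50 input reads, with ratios of 0.933 (0.67 to 1.32) and 1.53 (0.782 to 2.82), and the strongest promoter bin had 24 FLI1 reads (1.74-fold). All 9 called FLI1 bins lay inside the gene, 8 in introns and 1 over an exon. In this 388-kb locus they came to 2.32 per 100 kb, at the percentile 58.9 of all loci and the lowest of the 9 genes. The intron bin chr4:32474801-32475200, 149222 bp from the start, held 270 FLI1 reads (15.2-fold), 11 RUNX1 reads (9.78-fold) and 5 input reads. It ranked after the start of *Nfe2* as the strongest FLI1 bin of all 9 loci, and the FLI1 and RUNX1 summits were 1 bp apart. The RUNX1 call was weaker than that of *Nfe2*. Of the 11 reads, 7 were on the plus strand and 4 on the minus strand (7.11-fold, under the limit), and the call was lost with bins moved by 200 bp or a limit of 10-fold. The window contains a long run of alternating C and A beside CAGGAA.

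**Figure D2:**
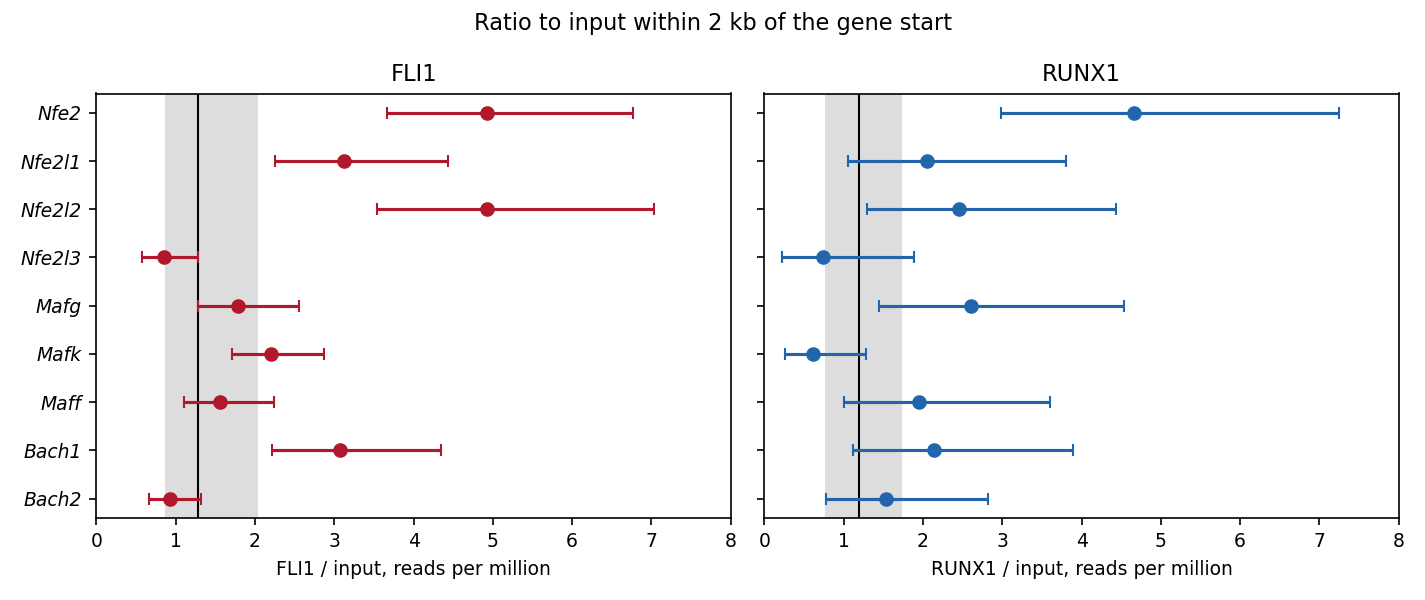
Ratio of FLI1 (left) and RUNX1 (right) to input, each scaled to library depth, within 2 kb of each gene start, with exact binomial 95% intervals for counting error; the line is the median of all protein-coding genes with a ratio (1.28 and 1.19) and the grey band runs from the 25th to the 75th percentile. *Nfe2* and *Nfe2l2* lie highest for FLI1 at 4.92, *Nfe2* lies highest for RUNX1 at 4.66, and *Nfe2l3* and *Bach2* lie below the median line of FLI1.

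In order, the FLI1 ratios ran from *Nfe2* and *Nfe2l2* (4.92) through *Nfe2l1* (3.12), *Bach1* (3.07), *Mafk* (2.2), *Mafg* (1.79) and *Maff* (1.56) to *Bach2* (0.933) and *Nfe2l3* (0.85). Between neighbours in this order the FLI1 ratio of *Maff* was 1.67 times that of *Bach2* (exact 95% interval 1.02 to 2.75), and the intervals of the other 7 steps reached below 1, the widest apart being *Nfe2l2* over *Nfe2l1* at 1.58 (0.965 to 2.58). The intervals of *Nfe2* and *Nfe2l2* lay wholly above those of *Mafk*, *Mafg*, *Maff*, *Bach2* and *Nfe2l3*. In RUNX1, *Nfe2* (4.66) was followed by *Mafg* (2.61) and *Nfe2l2* (2.45). Between RUNX1 neighbours the intervals of all 8 steps reached below 1, with *Nfe2* over *Mafg* at 1.78 (0.861 to 3.75). The median FLI1 ratio of the 9 was 2.2, against 1.28 over all genes with at least 10 input reads, and 7 of 9 lay above that median. The median RUNX1 ratio was 2.05 against 1.19, again with 7 of 9 above.

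A FLI1-called bin lay within 2 kb of the start of 6 of the 9 genes (66.7%), *Nfe2*, *Nfe2l1*, *Nfe2l2*, *Mafg*, *Mafk* and *Bach1*, where the share of all protein-coding genes was 35.6%. By kind these were 3 of 4 NF-E2 family genes, 2 of 3 small MAF genes and 1 of 2 BACH genes. The count was 7 at 2-fold, with *Maff* (45.6% of all genes), and 5 at 5-fold, without *Mafg* (22.1%). All 9 loci, gene bodies with 20 kb on each side, held a FLI1-called bin, where 61.9% of all loci did. Of the bins in these loci 61 were called and 2076 were not, while 0.7% of all bins in protein-coding loci were called. All 9 loci lay above the median density of all genes, 1.71 bins per 100 kb. At *Nfe2l3* (7.53) and *Maff* (5.77) every called bin lay within 2 kb of another gene's start, and 0 were left without those.

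**Figure D3:**
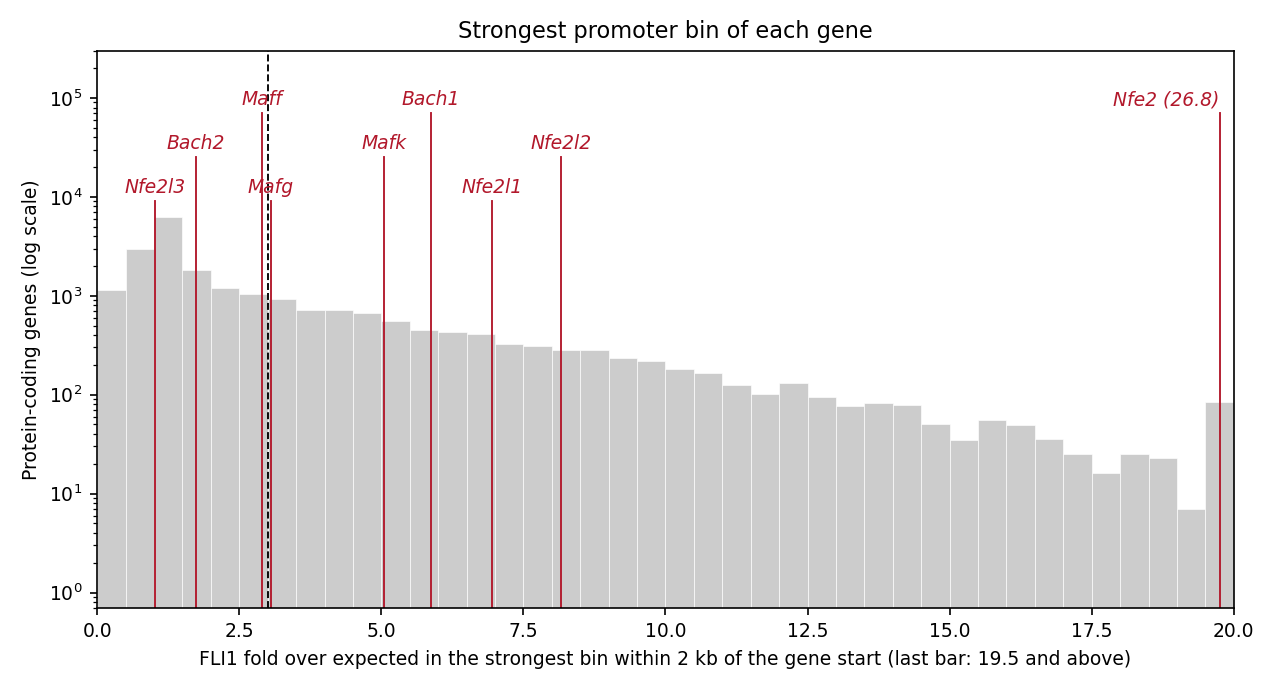
Number of protein-coding genes (vertical, log scale) by the FLI1 fold over expected in the strongest bin within 2 kb of the start (horizontal, the last bar holds 19.5 and above); red lines mark the 9 genes and the dashed line the 3-fold limit. *Mafg* (3.05) and *Maff* (2.9) straddle the limit and *Nfe2* (26.8) falls in the last bar.

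Of the 61 called bins, 25 lay within 2 kb of a start of the gene's own coding transcripts, 14 in introns, 1 in an exon, 9 upstream and 12 downstream. Another gene's start lay within 2 kb of 17 of them, and those reads cannot be assigned to either gene. Without them, 44 bins and 7 of the 9 genes were left, *Nfe2l3* and *Maff* having none, where 48.6% of all loci kept such a bin. The bins formed 43 separate clusters, 33 of a single bin.

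**Figure D4:**
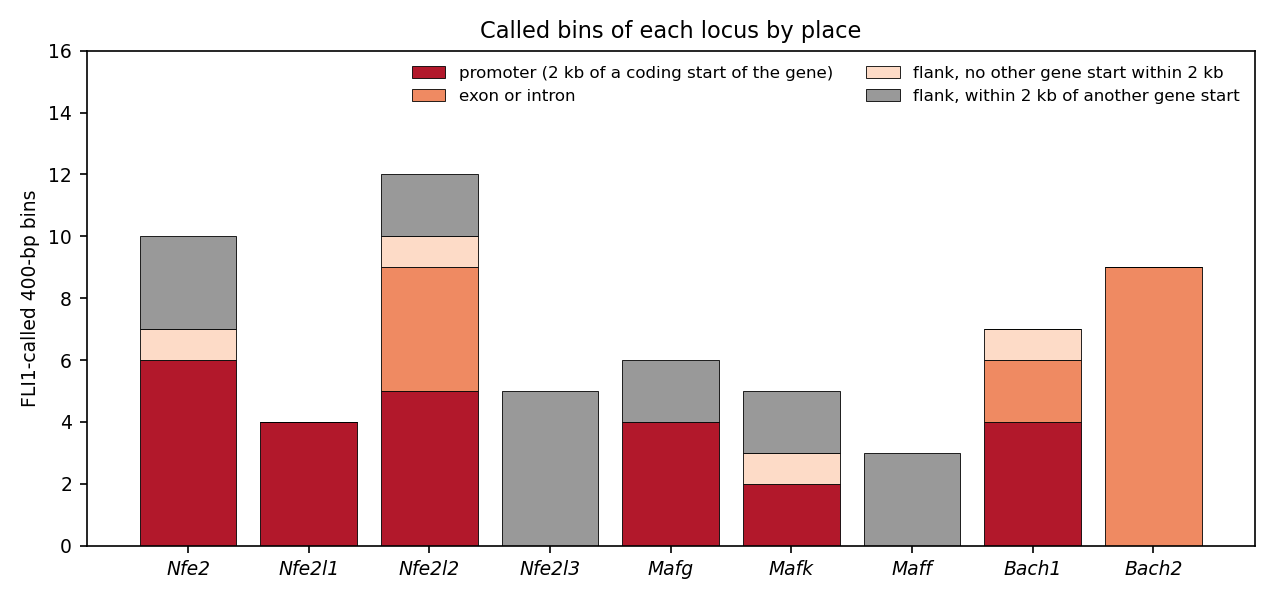
Number of FLI1-called 400-bp bins (vertical) in each locus by place: within 2 kb of a coding start of the gene, in its exons or introns, in the 20-kb flanks, or in the flanks near another gene's start (grey). All bins of *Nfe2l3* and *Maff* are grey, and all 9 of *Bach2* lie within the gene.

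RUNX1 was called at 2 of the 9 loci, *Nfe2* and *Bach2*, where 6.57% of all loci had a call, and near the start of *Nfe2* alone of the 9, where 2.24% of all genes had one. The share of all loci is not matched for length. The *Bach2* locus, at 388 kb, is the longest of the 9 and had 0.258 RUNX1-called bins per 100 kb, against 3.94 at *Nfe2*. The calls came to 3 bins, and each of these was also called for FLI1, as were 58% of the 914 RUNX1-called bins of all loci. Across all protein-coding loci 0.026% of bins were called for RUNX1, and 2.15% of FLI1-called bins. The RUNX1 call of *Nfe2* was kept at 6-fold and 10-fold, without input, with the bin grid moved and with other read shifts. It was also kept with repeated input positions and on either strand alone. The other settings, of FLI1 limits and depth, windows and neighbouring starts, could not remove it.

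RUNX1 reads can also be summed over the bins that FLI1 picked. Over the 61 FLI1-called bins there were 158 RUNX1 reads against 60.3 expected, a fold of 2.62 (2.23 to 3.06), while the other 2076 bins of these loci were at 0.789 (0.752 to 0.827). The contrast between called and other bins was thus larger than counting error. Over all protein-coding loci the same folds were 2.25 (2.23 to 2.27) and 0.688, so the called bins of the 9 loci were not told apart from other FLI1-called bins, and the rest of the 9 loci was slightly above the rest of all loci. *Nfe2* gave 42 of the 158 reads, and without it the fold was 2.3 (1.9 to 2.76). Over the 58 bins not called for RUNX1 there were 120 reads against 57.4 expected, a fold of 2.09 (1.73 to 2.5), and over all loci the same fold was 2.09 (2.07 to 2.11).

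By locus, the fold in FLI1-called bins was 4.22 (3.04 to 5.7) at *Nfe2*, 3.76 (2.15 to 6.11) at *Nfe2l3*, 3.17 (2.11 to 4.58) at *Bach2*, 2.74 (1.1 to 5.65) at *Maff*, 2.65 (1.74 to 3.85) at *Nfe2l2* and 2.2 (1.17 to 3.76) at *Mafg*. The bins behind the values of *Nfe2l3* and *Maff* all lie near the start of another gene. Lower values were found at *Mafk* (1.54, 0.795 to 2.69), *Nfe2l1* (1.53, 0.563 to 3.34) and *Bach1* (1.01). In these 3 the interval reached below 1. Of the 61 bins, 14 held 0 RUNX1 reads. If 3 reads are taken as the limit for a count of 0, folds of up to 1.59 to 3.53 are allowed, depending on the bin. The exact Poisson interval used for the folds would reach higher.

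**Figure D5:**
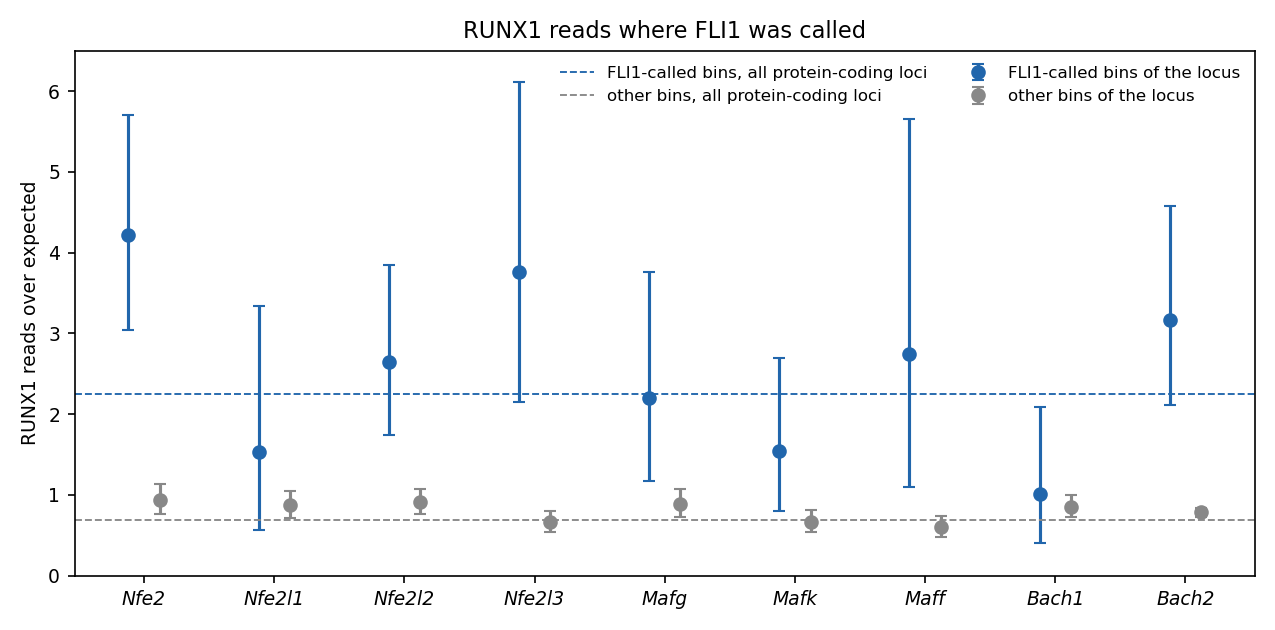
RUNX1 reads over expected (vertical) in the FLI1-called bins (blue) and the other bins (grey) of each locus, with exact Poisson 95% intervals for counting error; dashed lines give the same values over all protein-coding loci (2.25 and 0.688). The blue point lies above the grey point at all 9 loci, and the intervals overlap at *Nfe2l1*, *Mafk* and *Bach1*.

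The calls used no sequence. An ETS match (CCGGAA or CAGGAA) was present in 43 of the 61 bins (70.5%), against 73.6% of all FLI1-called bins of the genome and 36.7% of all 400-bp bins. RUNX matches were present in 27 bins (44.3%, against 39% and 27.5%). GATA matches (AGATAA or TGATAA), read by the GATA factors of the erythroid and megakaryocyte lineages, were present in 13 bins (21.3%, against 31.6% and 42.1%). TGAGTCA was found in 7 bins (11.5%, against 10.3% and 6.18%), 3 of them at *Bach1*, 2 at *Mafg*, 1 at *Nfe2l2* and 1 in the *Nfe2* locus at *Cbx5* and *Hnrnpa1*. Within 50 bp of the summits, 25 of 43 clusters held an ETS match (58.1%, against 10.7% of all windows of 101 bp) and 41 a GGAA core (95.3%, against 65.3%). In the same windows 9 held a RUNX match (20.9%, against 7.61%), 4 a GATA match (9.3%, against 12.8%) and 4 TGAGTCA (9.3%, against 1.54%). The shares at the summits of all FLI1-called bins were not computed, so these summit shares cannot be set apart from those of other FLI1 sites. A match is a string of letters and was not tested for binding, and NF-E2 binding itself was not analysed here.

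The genes that work with these factors gave the following counts of promoters called for FLI1, beside 35.6% of all genes. Of the KEAP1-NRF2 pathway, 20 of 24 genes were called, led by *Fth1*, the ferritin heavy chain (164 reads, 12.2-fold), and *Prdx1*, a peroxiredoxin (154 reads, 11.4-fold), and those not called included *Hmox1* and *Txnrd1*. Of AP-1 and related factors, which also bind TGAGTCA, 8 of 12 were called, with *Junb* highest (258 reads, 17-fold, ratio 6.62) and *Jun* next (147 reads, 10.9-fold). Of the large MAF factors, which unlike the small ones carry an activating domain, 1 of 4 was called, *Mafa* (131 reads, 9.73-fold). Of platelet genes linked to NF-E2, 6 of 11 were called, among them the collagen receptor gene *Gp6* (127 reads, 7.31-fold), which is also among the megakaryocyte genes. The median FLI1 ratio was 2.07 in the pathway, 2.12 in AP-1, 1.68 in the large MAF factors and 1.56 in the platelet genes, beside 2.2 for the 9 genes and 1.28 for all. On the main bin grid *Nfe2* (26.8-fold) stood above each gene of these lists in strongest promoter bin. The highest megakaryocyte genes were *Itga2b* (312 reads, 17-fold) and *Pf4* (262 reads, 17-fold). The lists were not recomputed with bins moved by 200 bp, where *Nfe2* was at 17.4-fold. In FLI1 ratio over 4 kb, *Junb* (6.62) and *Itga2b* (5.5) were above *Nfe2* (4.92), and *Jun* (4.91) and *Pf4* (4.25) below. In RUNX1 ratio *Junb* (4.71) was above *Nfe2* (4.66), and *Jun* (4.38), *Itga2b* (1.87) and *Pf4* (1.65) were below.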

How the data were processed

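Mature mouse megakaryocytes gave 1 FLI1, 1 RUNX1 and 1 input library. The authors aligned the reads with Bowtie (version not given in the sources used here) to build mm9 and deposited uniquely mapped reads as positions with strand, with no signal or count values. Every read count given here was made from those positions. Both ChIP files hold fewer reads than the study's supplement lists, RUNX1 by far the more so, and depth limits apply to the files used here. Both ChIP files held each position once, and 3.24% of input reads repeated one and were left out. The labels describe sonicated input and the methods input digested with micrococcal nuclease, which would change its coverage around starts, and the methods and labels also differ on the library kit and the least amount of DNA.

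Reads were moved to the fragment centre by 63 bp (FLI1) or 79 bp (RUNX1 and input) and counted in 400-bp bins (Python 3.11.15, numpy 2.4.6). Expected reads took the highest of a genome rate and local input rates, an idea taken from MACS with windows set here (the study used MACS 1.4, which was not run), and an effective genome of 1.87e9 bp. Ratios are ChIP reads over input reads, each scaled to library depth, with exact binomial intervals, and summed folds have exact Poisson intervals, at 95%. Reads are not independent molecules, so intervals cover counting error only. Genes and starts are from GENCODE M1, and 1021 genes with under 10 input reads have no ratio. Sequences are from NCBIM37 (mm9). The bin calls and ratio intervals were tested on simulated data with independent counts and an even background. Uneven input and reads that are both ends of 1 fragment were not simulated, so the simulation does not bear on them.

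The genes and lists were chosen with earlier results of these data known, and the GGAA core, the strand split and the settings named as added were chosen after the data were seen. All 9 genes are named, with the 2 highest genes of each list (1 such gene is not reported here) and neighbours whose start lay within 2 kb of a called bin. Other settings varied the fold limits, the input, the bin grid, the read shift, repeated positions, the FLI1 depth, the windows and the neighbouring starts.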

Additional observations from a re-analysis of the deposited data

How the results depend on the processing

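No paired analysis was possible because each antibody had 1 library. Of 67 recomputed values of the main counts, ratios and folds, 55 stayed within 1.5 times the count or within the interval and 12 did not. With FLI1 called at 2-fold there were 115 called bins over the 9 loci and the RUNX1 fold in them was 2.15, and at 5-fold there were 31 bins and a fold of 3.19. A FLI1 call lay in 72% of all loci at 2-fold and in 44.5% at 5-fold, against 61.9% at 3-fold. The share of all bins called was not computed for the other settings, so these bin counts are not particular to the 9 loci. With RUNX1 called at 10-fold 1 gene kept a RUNX1 call (1.74% of all loci), as it did with the bins moved by 200 bp (6.31%), *Nfe2* in both. With FLI1 thinned to the RUNX1 depth there were 111 called bins and a RUNX1 fold of 1.89. Calls also rose over all genes at that depth, where 91.9% of all loci held a FLI1 call. Promoters were then called at 8 of the 9 genes and at 50.7% of all genes. With a gene start of 1 kb the median FLI1 ratio was 3.13. Under a setting added after the data were seen, FLI1 was thinned and held to the RUNX1 rule of 8-fold. There 3 genes kept a promoter call (13.1% of all genes). The 17 bins called lay in 7 of the 9 loci, where 30.1% of all loci held a call. With the plus-strand reads of RUNX1 alone, also added, 4 genes had a RUNX1 call (15.8% of all loci), and with the minus-strand reads alone 3 genes did (15.3%), *Nfe2* in both and *Bach2* only in the first. The cause of these shifts was not tested beyond what each setting changes.

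The RUNX1 file is shallow. Its genome-wide rate of 0.85 reads a bin means that a called bin can rest on 7 reads. *Mafg* and *Maff* lay on either side of the FLI1 limit by 2 reads. With 1 library per antibody, the spread between cultures is unknown.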
